A study of Mus musculus with 8 samples.

Results

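The RUNX transcription factors Runx1, Runx2 and Runx3, their shared partner Cbfb and the Groucho corepressors Tle1, Tle3 and Tle4 were followed in 2 populations of regulatory T cells (Tregs). These 7 genes were chosen by name. All 7 were found by Ensembl identifier in both deposited tables, among 47069 Ensembl genes shared by the tables, and all 7 were among the 12273 genes that reached 1 FPKM (fragments per kilobase of gene length, scaled for sequencing depth) in at least 4 of the 8 libraries and were tested. RNA was sequenced from Ebi3-Treg cells, which were CD4+ CD25+ Thy1.1+ Blimp1-, and from Blimp1-Treg cells, which were CD4+ CD25+ Thy1.1- Blimp1+, with 4 libraries of each numbered 1 to 4. Both populations were sorted as CD62L-low cells from lymph nodes of the same kind of mouse, C57BL/6 animals of 6 to 8 weeks from a cross of 35EbiT with Blimp1-GFP knock-in mice. The sort therefore compares cells marked by 1 reporter with cells marked by the other, and cells with both or neither are not represented. Libraries 1 and 2 of both populations stood in 1 table and libraries 3 and 4 in the other. Whether each number is another animal is not in the labels, and the p-values thus reflect only how these libraries vary, which may be technical.

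RUNX proteins bind DNA through the Runt domain, and CBFβ, which does not touch DNA itself, stabilises that binding. In T cells RUNX-CBFβ complexes silence or activate genes of the CD4 and CD8 lineages, and in Tregs they bind the Foxp3 gene, help to keep it expressed and cooperate with the Foxp3 protein. Groucho/TLE proteins do not bind DNA. They are recruited as corepressors by RUNX proteins, by TCF-1 and LEF-1 and by other factors, Blimp1 among them.

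The RUNX genes are known to be controlled from a distal and a proximal promoter, and the distal promoters share a pair of RUNX core motifs, which is why these stretches are shown. The core motifs TGTGGT and TGCGGT were searched on both strands in RefSeq promoter windows (build GRCm38.p6), which run from 250 bases before to 50 bases after a transcript start. No 2 of the matches in the windows of the 7 genes overlapped. In the first window of each RUNX gene 2 copies of TGTGGT, read on the opposite strand as ACCACA, stand 2 bases apart. Below, 30 bases around the pair are given 5′ to 3′ on the strand of the gene, with the 2 motifs of the pair in capitals.
Runx1: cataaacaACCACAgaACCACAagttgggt
Runx2: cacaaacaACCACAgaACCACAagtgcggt
Runx3: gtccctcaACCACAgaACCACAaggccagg
The stretches are chr16:92826025-92826054 on the minus strand for Runx1, chr17:44814583-44814612 on the minus strand for Runx2 and chr4:135120503-135120532 on the plus strand for Runx3. Counted from the transcript start, the longest run of letters common to the 3 windows, the 18 bases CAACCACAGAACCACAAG, began at base 27 in Runx1 and base 22 in Runx2, after the start, and at base -136 in Runx3, before it. Searched on both strands, it occurred in 4 of 32851 windows (0.0122%), those of Runx1, Runx2 and Runx3 and that of Gm16225, whose window shares 232 bases with that of Runx3. For comparison, 22.4% of all windows held at least 1 core motif and 2.86% held at least 2.

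The Runx2 window held 2 core motifs beside the pair, a TGTGGT at base -80 and a TGCGGT at base 40, and so 4 in all. Windows with at least 3 made up 0.289% of all windows. The 250 bases before the start are given for Runx2, where 1 motif lies far from the pair, and for Runx3, the RUNX gene whose pair lies before the start, with core motifs in capitals.
Runx2: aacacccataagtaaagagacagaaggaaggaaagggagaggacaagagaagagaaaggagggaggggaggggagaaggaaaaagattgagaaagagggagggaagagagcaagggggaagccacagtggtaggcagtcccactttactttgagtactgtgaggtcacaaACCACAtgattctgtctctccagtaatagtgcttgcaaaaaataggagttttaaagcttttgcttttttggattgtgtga
Runx3: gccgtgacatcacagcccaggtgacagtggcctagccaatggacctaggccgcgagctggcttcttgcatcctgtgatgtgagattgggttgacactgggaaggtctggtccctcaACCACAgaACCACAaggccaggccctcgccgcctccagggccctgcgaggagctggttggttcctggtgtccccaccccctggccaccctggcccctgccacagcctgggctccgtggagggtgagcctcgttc
These are chr17:44814628-44814877 on the minus strand and chr4:135120395-135120644 on the plus strand. The second windows of Runx1 and Runx3 and the windows of Cbfb, Tle1, Tle3 and Tle4 held 0 core motifs. A match of letters is not a measured binding site, and the deposited values sum all transcripts of a gene, so use of the distal and the proximal promoters cannot be told apart.

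**Figure D1:**
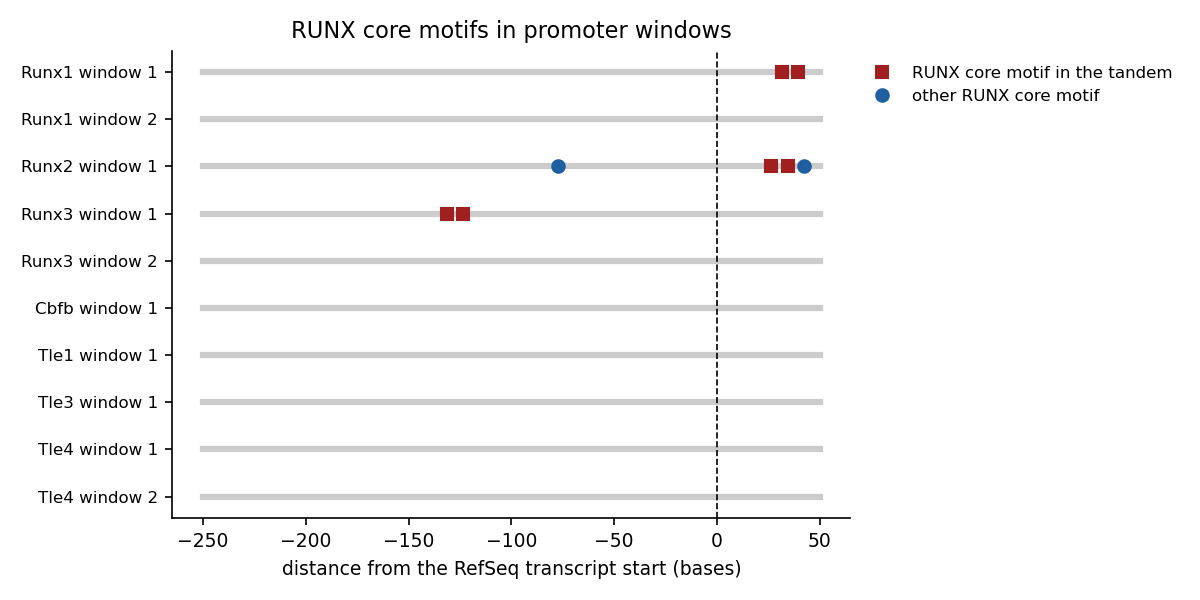
Positions of the RUNX core motifs in the RefSeq promoter windows of the 7 genes, in bases from the transcript start, with 1 grey bar a window. Red squares are the 2 motifs of the tandem pair and blue circles are other motifs; the pair is in the first window of Runx1, Runx2 and Runx3, and the windows of Cbfb, Tle1, Tle3 and Tle4 have none.

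The depth behind the FPKM values, recovered from the worth of a single read, was 13.3M to 25.6M fragments in Ebi3-Treg libraries and 14.7M to 31.3M in Blimp1-Treg libraries. The 7 genes were covered by 168 (Tle1 in Blimp1-Treg 4) to 5877 fragments (Tle3 in Ebi3-Treg 1) a library. These come from amplified libraries and are not independent molecules, so the sampling error of the RNA cannot be read from them. All 7 markers of Tregs and CD4 T cells (Foxp3, Il2ra, Ctla4, Ikzf2, Cd4, Cd3e, Trac) were above 1 FPKM in every library. Libraries numbered 1 carried B cell transcripts, with a summed level of 8 B cell markers of 269 FPKM for Ebi3-Treg 1 and 183 FPKM for Blimp1-Treg 1, against 33.0 to 73.9 FPKM in the other 6 libraries. The 2 CD8 T cell markers summed to 8.58 to 39.3 FPKM in Ebi3-Treg against 7.76 to 30.3 FPKM for Blimp1-Treg, highest in libraries 1 and 2, and the 5 NK cell markers to 2.77 to 16.0 FPKM and 1.29 to 4.38 FPKM. The 4 plasma cell markers summed to 10.8 to 37.2 FPKM in Ebi3-Treg against 5.84 to 20.5 FPKM for Blimp1-Treg, the 6 of macrophages and monocytes to 9.15 to 106 FPKM and 6.94 to 32.5 FPKM, and the 5 of dendritic cells to 5.56 to 14.0 FPKM and 4.09 to 11.8 FPKM. Ebi3-Treg 1 had the highest sum for each of these 6 cell types. Ebi3-Treg 2 also had a high sum for macrophages and monocytes (92.6 FPKM), against 6.94 to 32.5 FPKM in the libraries other than these. Lyz2 alone gave 91.1 FPKM of that sum in Ebi3-Treg 2 and 99.1 FPKM in Ebi3-Treg 1. The other markers of that list were each under 1 FPKM in Ebi3-Treg 2, at most 0.669 FPKM (Adgre1). No marker of these lists was at 0 in every library, and Tnfrsf17, Itgam and Flt3 stayed under 1 FPKM in all. The part of these cells in the results was not tested. Values without both libraries numbered 1 are given for each of the 7 genes and for the 4 genes of smallest p in each list; they still hold Ebi3-Treg 2. The tables also differed in Xist, which was at 0.0750 FPKM or less in libraries 1 and 2 and at 18.5 to 24.4 FPKM in libraries 3 and 4, so the sex of the mice and the table cannot be told apart.

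The comparison asks how the RUNX module differs between Tregs marked by the Ebi3 reporter and Tregs marked by Blimp1. Runx2 was lower in Ebi3-Treg than in Blimp1-Treg, at 0.440 of its level, and was the 1 of the 7 genes that passed the test with both tables together. Runx3 and Cbfb had lower values and Tle1 and Tle3 higher values in Ebi3-Treg in all 4 numbers, and these 4 passed when libraries of the same number were compared as a block. Runx1 and Tle4 passed in neither fit. The labels do not pair libraries of the same number. With table means removed, libraries of the same number correlated over genes at r = 0.85 in the first table. In the second table r was -0.084, so numbers 3 and 4 showed no pairing beyond the table. The test, limma on log2(FPKM + 1) with the table as a term and Benjamini-Hochberg adjustment over all 12273 genes, called 772 genes (6.29%). Of these 413 (3.37%) were higher and 359 (2.93%) were lower in Ebi3-Treg, and 1 lower gene among 7 is to be read against those shares. With the replicate number as a block limma called 5 of the 7 and 2752 genes in all (22.4%). The 3 lower members stand against 8.94% of all genes called lower, and the 2 higher members against 13.5% called higher. Fits without both libraries numbered 1, or both numbered 2, leave 1 library of each population in the first table. The table term then acts as a block for that pair, so these fits are not wholly unblocked. Differences are on the log2(FPKM + 1) scale, with positive values for genes higher in Ebi3-Treg.

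**Figure D2:**
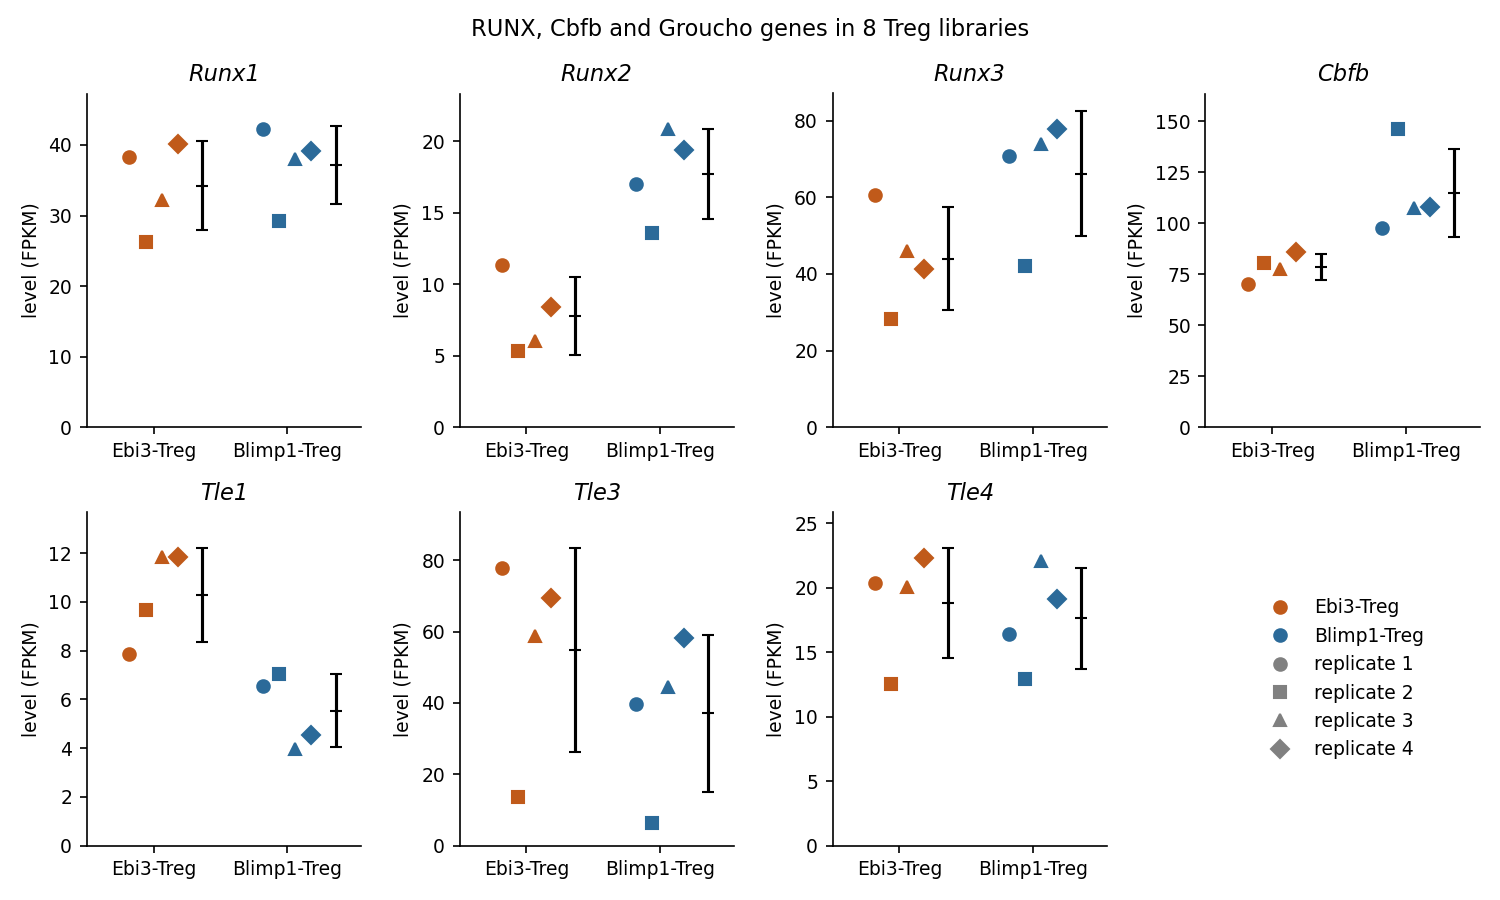
FPKM of each gene in each library, with Ebi3-Treg at the left of each panel and Blimp1-Treg at the right, symbols by replicate number, and the mean ± SD (n = 4) beside the points. The populations do not overlap for Runx2, Cbfb and Tle1, and Tle3 is lowest in replicate 2 of both populations (13.6 and 6.37 FPKM).

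Among the DNA-binding subunits, Runx2 (ENSMUSG00000039153), best known as the regulator of bone formation and also expressed in activated and memory T cells, separated the populations. Its level was 11.4, 5.33, 6.05 and 8.43 FPKM in Ebi3-Treg 1 to 4, against 17.0, 13.6, 20.8 and 19.4 FPKM in Blimp1-Treg 1 to 4. Every Ebi3-Treg library was thus below every Blimp1-Treg library, and Ebi3-Treg 1 came nearest. Ebi3-Treg averaged 7.79 ± 2.73 FPKM, against 17.7 ± 3.17 FPKM for Blimp1-Treg (SD, n = 4 each). The log2 difference was -1.12 (SE 0.25, 95% interval -1.70 to -0.55, limma adjusted p = 0.0375). The first table alone gave -0.87 and the second table -1.37. The call depended on which libraries entered. It was kept in limma fits without Ebi3-Treg 1 (adjusted p = 0.00656) or Blimp1-Treg 2, and lost without any other single library, with log2 differences of -1.16 to -0.98 and adjusted p of up to 0.135 (without Blimp1-Treg 4). Without both libraries numbered 1 the log2 difference was -1.32 (adjusted p = 0.00357) and without both numbered 2 it was -1.09 (0.0175). Runx2 shares exon sequence with the antisense gene Runx2os1 in the reference annotation, and reads of the pair cannot be told apart if counting ignored the strand.

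Runx3 (ENSMUSG00000070691), which represses Cd4 in CD8 T cells and works with T-bet in type 1 helper cells, was at 60.7, 28.1, 46.0 and 41.2 FPKM in Ebi3-Treg 1 to 4, against 70.9, 42.1, 74.0 and 77.8 FPKM in Blimp1-Treg 1 to 4. The ranges overlapped, because library 2 was low and library 1 of Ebi3-Treg was high, while within each number Ebi3-Treg was the lower. Ebi3-Treg averaged 44.0 ± 13.4 FPKM, against 66.2 ± 16.3 FPKM for Blimp1-Treg (SD, n = 4 each), a log2 difference of -0.59 (SE 0.27, limma adjusted p = 0.298), and with the replicate block its adjusted p was 0.0135. It was -0.39 in the table of replicates 1 and 2, and -0.79 in the table of replicates 3 and 4, which passed on its own (limma adjusted p = 0.0126). Leaving out both libraries numbered 1 gave -0.71 (adjusted p = 0.00592), and leaving out both numbered 2 gave -0.60 (0.0272).

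Runx1 (ENSMUSG00000022952), which is needed for blood stem cells and is the main RUNX partner described for Foxp3, had like levels in both populations. It was at 38.3, 26.2, 32.1 and 40.1 FPKM in Ebi3-Treg 1 to 4, against 42.2, 29.3, 38.1 and 39.1 FPKM in Blimp1-Treg 1 to 4, with overlapping ranges and Ebi3-Treg the lower in 3 of 4 numbers. The log2 difference was -0.12 (95% interval -0.54 to 0.29, limma adjusted p = 0.842), and the narrower interval of the blocked fit was -0.32 to 0.074. Without both libraries numbered 1 the difference was -0.12 (limma adjusted p = 0.516), and single libraries left out in turn moved it between -0.22 (without Ebi3-Treg 1) and -0.012 (without Ebi3-Treg 2). Runx1 shares exon sequence with the antisense gene Gm26626.

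The makeup of the RUNX pool was described by ratios and shares, without a test. A ratio of 2 genes within a library does not depend on how that library was scaled, but both Runx1 and Runx2 have an antisense partner whose reads may be counted with them. Runx2 per Runx1 was 0.297, 0.203, 0.188 and 0.210 in Ebi3-Treg 1 to 4 and 0.402, 0.464, 0.547 and 0.497 in Blimp1-Treg 1 to 4, as a ratio of FPKM. The populations did not overlap in this ratio. Of the summed FPKM of the 3 RUNX genes, Runx2 made up 8.95 ± 1.31% in Ebi3-Treg and 14.7 ± 1.36% in Blimp1-Treg. Runx1 made up 40.4 ± 4.77% in Ebi3-Treg and 31.1 ± 2.89% in Blimp1-Treg (SD, n = 4). Neither share overlapped, but for Runx1 the gap was narrow (34.7% in Ebi3-Treg 1 against 34.5% in Blimp1-Treg 2). Shares of 1 sum depend on each other, so that of Runx1 also moves with the levels of Runx2 and Runx3. The Runx3 share, 50.7 ± 4.81% in Ebi3-Treg and 54.2 ± 3.28% in Blimp1-Treg, overlapped. Runx3 was above Runx1 in all 8 libraries, by a ratio of 1.03 to 1.58 in Ebi3-Treg and 1.44 to 1.99 in Blimp1-Treg.

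**Figure D3:**
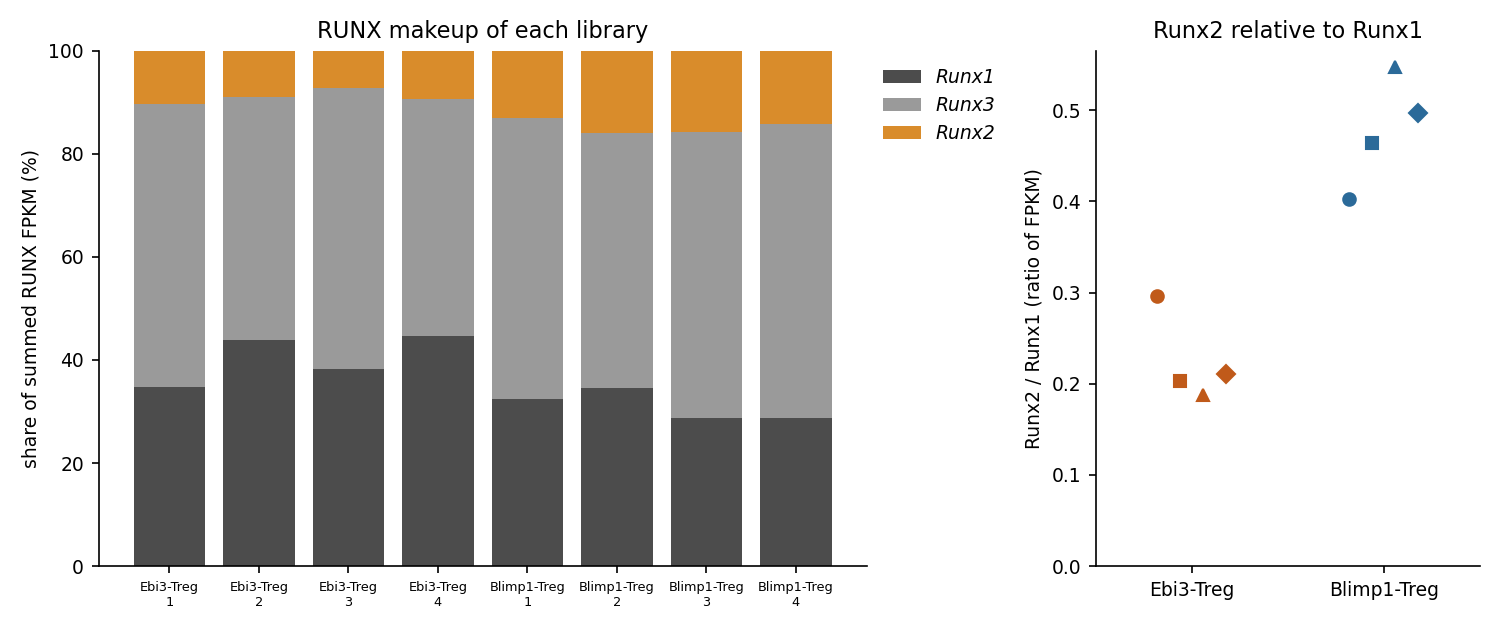
Left, share of Runx1, Runx3 and Runx2 in the summed RUNX FPKM of each library (%), with Ebi3-Treg 1 to 4 and then Blimp1-Treg 1 to 4. Right, the ratio of Runx2 to Runx1 FPKM by library, which lies at 0.188 to 0.297 in Ebi3-Treg and at 0.402 to 0.547 in Blimp1-Treg.

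Cbfb (ENSMUSG00000031885), which encodes the subunit shared by all RUNX factors, had the highest mean level of the 7 genes in both populations. It was at 70.3, 80.5, 77.4 and 85.7 FPKM in Ebi3-Treg 1 to 4, against 97.4, 146, 107 and 108 FPKM in Blimp1-Treg 1 to 4. All Ebi3-Treg libraries were below all Blimp1-Treg libraries, and Blimp1-Treg 2 stood highest. Ebi3-Treg averaged 78.5 ± 6.45 FPKM, against 115 ± 21.5 FPKM for Blimp1-Treg (SD, n = 4 each), a ratio of 0.685. On the log2 scale this was -0.53 (SE 0.16, limma adjusted p = 0.107, and 0.0114 with the replicate block). The first table alone gave -0.66, and the second gave -0.40 (limma adjusted p = 0.0466). Without both libraries numbered 1 it was -0.55 (adjusted p = 0.0241), and without both numbered 2 it was -0.42 (0.0134). Relative to the summed RUNX level, Cbfb was at 0.636 to 1.35 in Ebi3-Treg and 0.749 to 1.72 in Blimp1-Treg, with library 2 highest in both. The size of this ratio depends on the gene lengths behind the FPKM values. Those recovered were 1737 bases for Cbfb and 1190 for Runx3, against 3480 and 5003 in the reference annotation.

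Of the Groucho corepressors, Tle1 (ENSMUSG00000008305), which binds RUNX proteins through a short motif at their end, was at 7.85, 9.65, 11.8 and 11.8 FPKM in Ebi3-Treg 1 to 4, against 6.55, 7.03, 3.98 and 4.53 FPKM in Blimp1-Treg 1 to 4. Every Ebi3-Treg library was above every Blimp1-Treg library, narrowly in libraries 1 and 2 and widely in libraries 3 and 4. Ebi3-Treg averaged 10.3 ± 1.92 FPKM, against 5.53 ± 1.49 FPKM for Blimp1-Treg (SD, n = 4 each), a ratio of 1.86. The log2 difference was 0.80 (SE 0.23, limma adjusted p = 0.0842, and 0.0382 with the replicate block), and was 1.0 without both libraries numbered 1 (adjusted p = 0.0228). It also passed without Ebi3-Treg 1 alone (0.95, limma adjusted p = 0.0464). The first table alone gave 0.32, and the second gave 1.29 (limma adjusted p = 0.0136 within that table). The difference between the tables, 0.97 (SE 0.32), had an unadjusted limma p of 0.0193 and did not pass after adjustment (1.0, and 0.172 with the block). Tle1 shares exon sequence with the antisense gene Gm11250.

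Tle3 (ENSMUSG00000032280), a corepressor that TCF-1 and LEF-1 recruit in T cells, was at 77.7, 13.6, 58.8 and 69.4 FPKM in Ebi3-Treg 1 to 4, against 39.6, 6.37, 44.4 and 58.2 FPKM in Blimp1-Treg 1 to 4. Library 2 was far below the others in both populations, so the ranges overlapped, while within each number Ebi3-Treg was the higher, by a ratio of 1.96, 2.13, 1.32 and 1.19. On the log2 scale the difference was 0.65 (SE 0.64, limma adjusted p = 0.721), and with the replicate block its SE was 0.14 and its adjusted p 0.0208. Without both libraries numbered 1 it was 0.54 (adjusted p = 0.0923) and without both numbered 2 it was 0.53 (0.0821), neither of which passed. Single libraries left out in turn moved it from 0.090 (without Blimp1-Treg 2) and 0.095 (without Ebi3-Treg 1) up to 1.07 (without Ebi3-Treg 2 or Blimp1-Treg 1).

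Tle4 (ENSMUSG00000024642), another such corepressor, was at 20.4, 12.6, 20.1 and 22.3 FPKM in Ebi3-Treg 1 to 4, against 16.4, 12.9, 22.1 and 19.1 FPKM in Blimp1-Treg 1 to 4. Ebi3-Treg was the higher in 2 numbers and the lower in the other 2. The log2 difference was 0.084 (95% interval -0.34 to 0.51, limma adjusted p = 0.904, and 0.622 with the block), and it turned to -0.055 without Ebi3-Treg 1. Without both libraries numbered 1 it was 0.014 (adjusted p = 0.949).

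**Figure D4:**
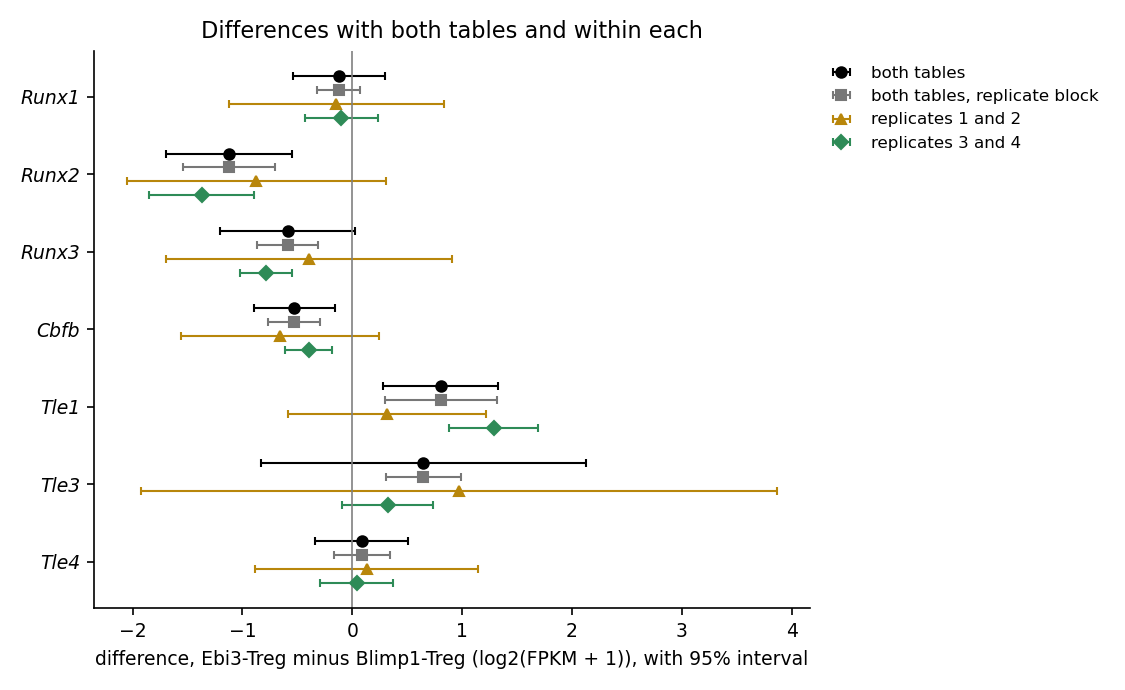
Log2(FPKM + 1) difference of each gene, Ebi3-Treg minus Blimp1-Treg, with its 95% interval, in 4 limma fits (both tables, both tables with the replicate block, and each table alone). Runx1, Runx2, Runx3 and Cbfb have their points below 0 and Tle1, Tle3 and Tle4 above 0 in all 4 fits. The intervals of Runx1 and Tle4 cross 0 in each. The point of both tables is the same with and without the block, and is the mean of the points of each table alone. The interval of Tle3 narrows under the block.

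Groups without any overlap over the 8 libraries were thus seen for 3 of the 7 genes (Runx2 and Cbfb lower, Tle1 higher in Ebi3-Treg), against 1366 of all 12273 genes (11.1%; 4.50% lower and 6.63% higher). Of the 7, 5 had the same direction in all 4 numbers, against 44.2% of all genes. In replicates 3 and 4 alone, limma called 4 of the 7 (Runx2, Runx3 and Cbfb lower, Tle1 higher) and 11.0% of all genes, 5.47% lower and 5.51% higher. Replicates 1 and 2 alone called 0 of the 7 and 0 of 12273 genes (0.00%) with limma, 707 of them at an unadjusted p under 0.05. With the block the same libraries called 3 of the 7 (Runx2 and Cbfb lower, Tle3 higher) and 23.3% of all genes (9.26% lower and 14.0% higher), with 1 residual degree of freedom. Without both libraries numbered 1 limma called 4 of the 7 and 16.1% of all genes. Without both numbered 2 it called 4 and 16.0%, each time Runx2, Runx3, Cbfb and Tle1. In both of these fits the table term blocks the pair left in the first table, so they stand nearer to the blocked fit in design. A test of the difference between tables called 0 of the 7 and 0 of all genes (0.00%) with limma, where 203 genes had an unadjusted p under 0.05, and 0 of the 7 and 13 genes (0.106%) with the block. In these bulk libraries, fewer cells with a transcript and less of it in each cell cannot be told apart.

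In order of mean level the Ebi3-Treg libraries had Cbfb (78.5 FPKM), Tle3 (54.9), Runx3 (44.0), Runx1 (34.2), Tle4 (18.8), Tle1 (10.3) and Runx2 (7.79). In that order the neighbours Runx1 and Tle4, and Tle4 and Tle1, did not overlap over the libraries, and the other neighbours did. The Blimp1-Treg libraries had Cbfb (115 FPKM), Runx3 (66.2), Runx1 (37.2), Tle3 (37.1), Runx2 (17.7), Tle4 (17.6) and Tle1 (5.53), where Cbfb and Runx3, and Tle4 and Tle1, did not overlap. Runx2 was thus the lowest of the 7 in Ebi3-Treg, and Tle1 the lowest in Blimp1-Treg. The order between genes depends on the gene lengths behind the FPKM values. The lengths that make the reads whole (1190 bases for Runx3 to 4550 for Tle4) were shorter than the exons of the reference annotation (5003 and 5702 bases). With the reference lengths Cbfb stayed first (39.2 in Ebi3-Treg and 57.2 in Blimp1-Treg), Tle4 moved up to the second place in Ebi3-Treg (15.0), and Runx2 (1.97) in Ebi3-Treg and Tle1 (1.60) in Blimp1-Treg stayed last.

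Of 20 listed coregulators of RUNX and TLE proteins 17 were tested. The limma test called 0 of them, against 6.29% of all genes, and under the replicate block 2 higher (13.5% of all genes) and 1 lower (8.94%), so neither count sets the list apart from that background. The median log2 difference was 0.11, against 0.067 over all genes tested. The 4 with the smallest p were Hdac1, which encodes a histone deacetylase of corepressor complexes (0.42, SE 0.14, adjusted p = 0.133, and 0.0131 with the block), Suv39h1, which encodes a histone H3 lysine methyltransferase (0.47, SE 0.16, adjusted p = 0.157, and 0.0185 with the block), Smad3, which carries TGF-β signals (-0.70, SE 0.39, adjusted p = 0.414, and 0.0179 with the block), and Hdac3 (0.26, SE 0.19, adjusted p = 0.597). Hdac1 was at 317, 392, 268 and 292 FPKM in Ebi3-Treg 1 to 4, against 218, 269, 225 and 228 FPKM in Blimp1-Treg 1 to 4, so that Ebi3-Treg 3 lay within the Blimp1-Treg range. With both libraries numbered 1 left out, limma called Hdac1 (0.38, adjusted p = 0.0316), Suv39h1 (0.44, adjusted p = 0.0465) and Smad3 (-0.73, adjusted p = 0.0441), and not Hdac3 (0.30, adjusted p = 0.0803).

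Of 21 genes known to be bound or regulated by RUNX-CBFβ in T cells, 18 were tested. The test called 0 higher and 2 lower in Ebi3-Treg, against 3.37% and 2.93% of all genes, while 16 missed the threshold. Under the block 2 were higher and 5 lower, against 13.5% and 8.94% of all genes. The median log2 difference was -0.24. Gzmb, which encodes granzyme B, was lower (2.26, 0.140, 0.159 and 0 FPKM in Ebi3-Treg 1 to 4, against 182, 163, 54.8 and 34.5 FPKM in Blimp1-Treg 1 to 4). Its log2 difference was -5.93 (SE 0.38, limma adjusted p = 0.00031). Gzmb entered the test through the Blimp1-Treg libraries, as all Ebi3-Treg libraries but Ebi3-Treg 1 were under 1 FPKM. The size of its difference depends on the pseudocount, and was -7.96 with one of 0.1. Tbx21, which encodes T-bet, a factor that acts together with Runx3 in type 1 helper cells, was also lower, at 11.9, 9.54, 5.76 and 5.28 FPKM in Ebi3-Treg 1 to 4, against 18.4, 14.7, 20.7 and 18.2 FPKM in Blimp1-Treg 1 to 4. All Ebi3-Treg libraries were below all Blimp1-Treg libraries, and the log2 difference was -1.11 (SE 0.24, limma adjusted p = 0.035). The first table alone gave -0.58 and the second -1.65. Leaving out any single library other than Ebi3-Treg 1 or Blimp1-Treg 2 ended the Tbx21 call (limma adjusted p of up to 0.135), as did leaving out the table term (0.061) or the filter on low values (0.0947). Both lower genes, Tbx21 (-1.29, adjusted p = 0.0146) and Gzmb (-5.97, adjusted p = 0.000779), were also called without both libraries numbered 1.

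Il2, the T cell growth factor gene that Runx1 and Foxp3 regulate, had a log2 difference of 1.48 (SE 0.39, limma adjusted p = 0.0687, and 0.025 with the block) at low levels, 1.27 to 10.2 FPKM in Ebi3-Treg against 0.227 to 0.896 FPKM for Blimp1-Treg. It entered the test only through Ebi3-Treg, the population where it was at 1 FPKM or more, and with a pseudocount of 0.1 the difference was 2.39. The Il2 difference without both libraries numbered 1 was 1.37 (adjusted p = 0.0691). Satb1, which encodes a chromatin organiser of T cells, had one of 0.71 (SE 0.19, adjusted p = 0.0749, and 0.00425 with the block), with 94.8, 63.3, 50.1 and 49.9 FPKM in Ebi3-Treg 1 to 4, against 65.5, 44.1, 27.7 and 25.0 FPKM in Blimp1-Treg 1 to 4. The Satb1 difference without both libraries numbered 1 was 0.77 and was called (adjusted p = 0.00759). The other 3 genes called lower under the block were Ctla4, an inhibitory receptor gene of Tregs, with a log2 difference of -0.76 (limma adjusted p = 0.353, and 0.0115 with the block), Tnfrsf18, which encodes the receptor GITR (-0.36, adjusted p = 0.631, and 0.0253 with the block), and Prf1, which encodes perforin (-1.28, adjusted p = 0.188, and 0.00702 with the block). Without both libraries numbered 1, limma called Ctla4 (-0.60, adjusted p = 0.0165) and Prf1 (-1.46, 0.0486), and not Tnfrsf18 (-0.29, 0.337). Without both numbered 2, it called Ctla4 (-0.73, 0.0273), and neither Prf1 (-1.30, 0.0774) nor Tnfrsf18 (-0.38, 0.228). Prf1 was low, at 4.28, 0.748, 2.92 and 0.529 FPKM in Ebi3-Treg 1 to 4. Foxp3 itself (-0.099, adjusted p = 0.886) and Cd4 (-0.098, adjusted p = 0.896) did not pass.

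Of 8 listed DNA-binding factors that recruit TLE proteins, 6 were tested. The test called 3 higher and 1 lower, against 3.37% and 2.93% of all genes, while 2 missed the threshold. The counts were the same under the block, against 13.5% and 8.94% of all genes. The 4 called genes include Prdm1, whose reporter defined the sort, and Tcf7l1, which entered the test only through Ebi3-Treg. The median log2 difference was 1.11. Tcf7, which encodes TCF-1, was at 619, 410, 639 and 664 FPKM in Ebi3-Treg 1 to 4, against 98.3, 37.9, 115 and 135 FPKM in Blimp1-Treg 1 to 4. Lef1, its close relative, was at 101, 79.9, 62.6 and 73.9 FPKM in Ebi3-Treg 1 to 4, against 59.2, 49.0, 41.2 and 42.7 FPKM in Blimp1-Treg 1 to 4. For both genes all Ebi3-Treg libraries were above all Blimp1-Treg libraries, with a log2 difference of 2.70 for Tcf7 (SE 0.31, limma adjusted p = 0.0028) and 0.71 for Lef1 (SE 0.14, adjusted p = 0.0226). The Lef1 call was lost without replicate 3 or 4 of either population (adjusted p up to 0.0977), without the table term (0.103) and without the filter on low values (0.0781). Tcf7l1, which encodes TCF-3 of the same family, was higher as well, at 1.88 to 3.44 FPKM in Ebi3-Treg against 0.265 to 0.426 FPKM for Blimp1-Treg (log2 difference 1.52, SE 0.19, adjusted p = 0.00397). At these low levels its size depends on the pseudocount, and was 2.76 with one of 0.1. Prdm1, which encodes Blimp1 and whose reporter defined the sort, was lower (-4.43, SE 0.23, adjusted p = 0.000155), which describes the gate. These 4 genes were called without both libraries numbered 1 as well, with log2 differences of 2.72 for Tcf7, 0.69 for Lef1, 1.46 for Tcf7l1 and -4.41 for Prdm1.

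**Figure D5:**
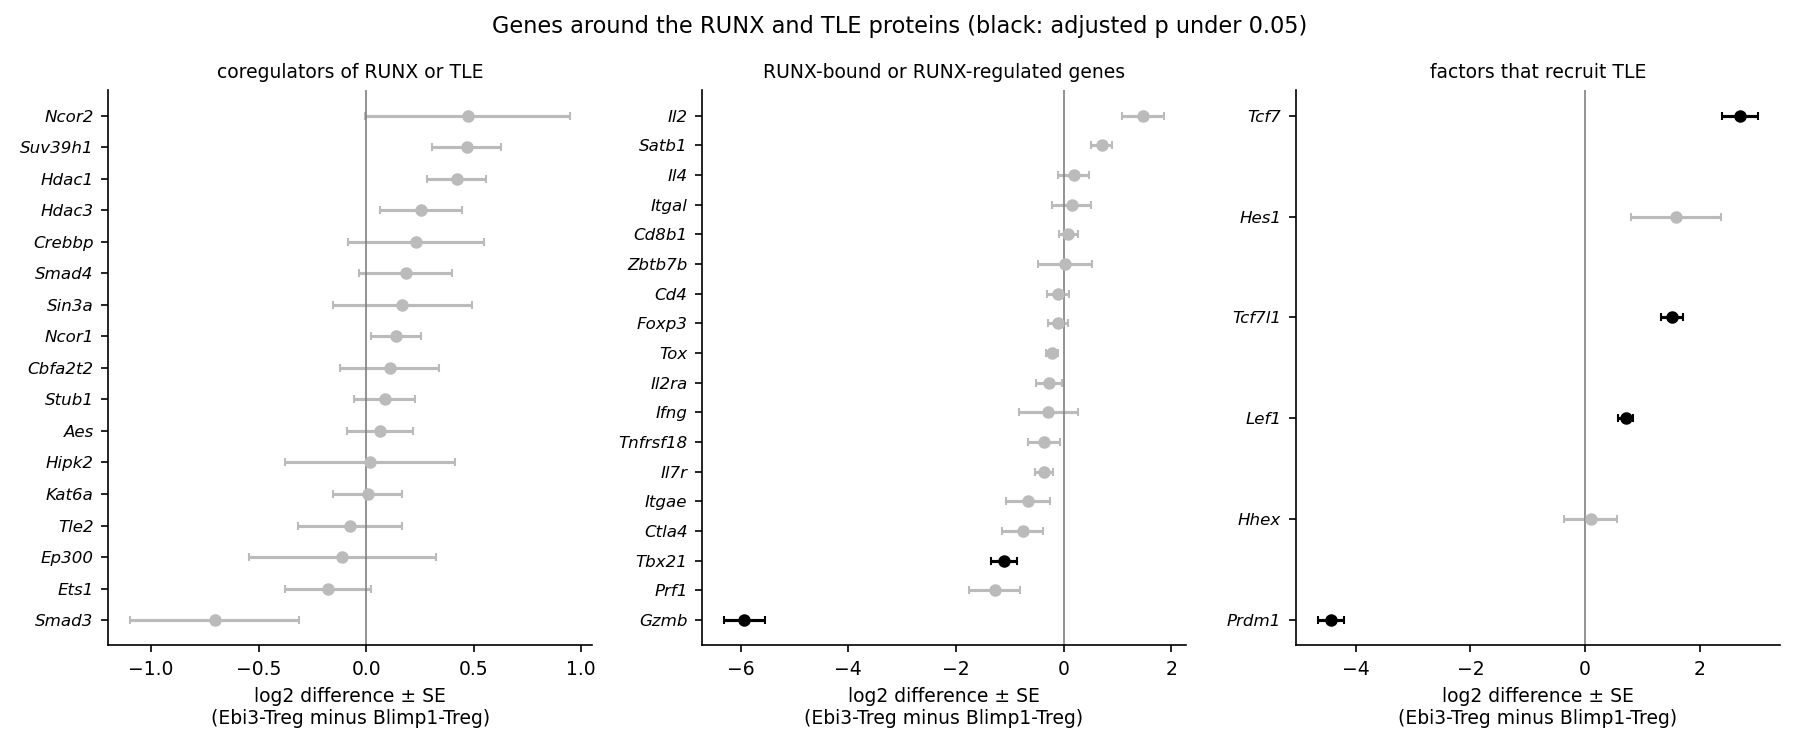
Log2(FPKM + 1) difference ± SE, Ebi3-Treg minus Blimp1-Treg, of the tested genes of 3 lists around the RUNX and TLE proteins, in black where the limma adjusted p was under 0.05. None of 17 coregulators, 2 of 18 RUNX-regulated genes (Gzmb and Tbx21) and 4 of 6 TLE-recruiting factors (Tcf7, Lef1, Tcf7l1 and Prdm1) are black.

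Genes whose pattern was most like that of each member were ranked by Pearson's r over the 8 libraries, after the mean of each table was subtracted, among 8413 named protein-coding genes with a mean of at least 5 FPKM. Libraries share depth, scaling and replicate number, and the highest of so many r values over 8 points is high by selection. Runx2 was most like Clic4, an intracellular channel gene (r = 0.990), Mcm4, a helicase gene of DNA replication (0.989), and Lrrfip1 (0.987). Runx3 was most like Wdr37 (0.994), the replication gene Mcm10 (0.991) and Cltc, which encodes clathrin heavy chain (0.990), and Runx1 most like Zfp7 (0.994), Nrros (0.986) and the histone demethylase gene Kdm1a (0.986). Cbfb was most like Nfyb, a subunit of the NF-Y transcription factor (0.992), Selenop (0.988) and the sorting nexin gene Snx5 (0.988). Tle1 was most like Fbxo9 (0.992), Rrp9 (0.976) and Ubac2 (0.968), Tle3 like Mink1, Fbxw8 and Nup133 (0.998, 0.998 and 0.997), and Tle4 like Zfp74, Lpcat3 and Pag1 (0.986, 0.981 and 0.981). Runx1, Runx2, Runx3, Tle3 and Tle4 were each at their lowest in library 2 of both populations. The part of these libraries in the r values was not tested.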

How the data were processed

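Per the submitters' processing notes, the tools were TopHat2 2.0.12, Bowtie2 2.2.3 and HTSeq 0.6.1 with the build mm9, without their roles. Which annotation and which counting mode were used is not stated. Libraries were made with a low-input SMART-Seq v4 kit from 10 pg to 10 ng of RNA after sorting to above 90% purity, per the labels' protocols. The authors deposited FPKM values in 2 tables of 47709 and 47681 features, with 1 column a library named by its title. Rows lacking an Ensembl identifier (640 and 612) were dropped, and 46488 of 47069 genes matched a symbol (GENCODE, GRCm38).

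Low FPKM values were whole multiples of the worth of 1 read, which gave depth. Fragments of the 7 genes came from the shortest whole gene length that made all 8 values whole within 0.001. Such amplified reads are not independent molecules, so depth bounds counting error only. All 8 libraries differed from each other (r of 0.947 to 0.983 on log2(FPKM + 1)), and none was merged.

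The 12273 genes that reached 1 FPKM in 4 or more libraries were tested with limma 3.58.1 (R 4.3.3) on log2(FPKM + 1) with a variance trend, two-sided, with population and table as terms, at an adjusted p under 0.05. The scale understates changes of low genes. The fitting code was tested on simulated data. Deviations from the population mean, over genes, were correlated between libraries of 1 number (r = 0.62, 0.89, 0.53 and 0.54 for numbers 1 to 4). With the other number of the same table r was -0.27, -0.021, 0.56 and 0.61, so the values of numbers 3 and 4 are not above those that a shared table gives. With table means removed r was 0.85 in the table of numbers 1 and 2, and -0.084 in that of numbers 3 and 4. The numbers thus pair numbers 1 and 2 in the data, not in the labels, and numbers 3 and 4 show no pairing beyond the table. Blocked values are printed where they change the call of a member or list gene. The alternatives were another pseudocount, filters, scaling, no table term, no trend, and left-out libraries.

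The members, the 3 gene lists, the marker lists and the naming rule (all members, the 4 genes of each list with the smallest p, and the 3 genes of most like pattern) were chosen with earlier results of these data known. Foxp3, Cd4, Ctla4, Tnfrsf18 and Prf1 were named beyond that rule, after their values were seen. Promoter sequences are RefSeq's for GRCm38.p6; windows were found for all 7 genes. No coordinates of mm9 are used.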

Additional observations from a re-analysis of the deposited data

Results flagged for a closer look

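In groups of 4 libraries, a value was picked out where its gap to the nearest other library exceeded the 95% limit of Dixon's criterion for 4 values. Of 38 groups examined, over the 7 members and 12 list genes, 3 were picked out, and chance picks out about 1 in 20. Hdac3 was low in Ebi3-Treg 2 (31.6 FPKM) and in Blimp1-Treg 2 (22.7 FPKM), the number that was also low for Tle3. Gzmb was high in Ebi3-Treg 1 (2.26 FPKM), the Ebi3-Treg library with the highest sums of NK cell (16.0 FPKM), CD8 T cell (39.3 FPKM) and B cell markers (269 FPKM); their part was not tested. None of the 7 members was picked out.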

How the results depend on the processing

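With both tables, Runx1, Runx2, Runx3, Cbfb, Tle1 and Tle3 kept their direction in all 17 alternatives, and Tle4 in 16 of 17. Among these, the filters, the replicate block, the table term and the variance trend cannot move the log2 difference in this balanced design. Their direction was fixed in advance, and they bear on the calls only. The Runx2 call was lost without the filter (-1.12, adjusted p = 0.101), as were those of Tbx21 and Lef1. With the replicate block Runx3 (-0.59), Cbfb (-0.53), Tle1 (0.80) and Tle3 (0.65) were called in addition, and all genes called were 2752, against 772 in the main fit. Called genes were 420 without the filter and 441 without the table term, and called members 0 without the filter and 5 with the block. Leaving out libraries, the counts ran from 341 (without Blimp1-Treg 4) to 1970 (without both numbered 1) for all genes and from 0 to 4 for members. The log2 differences then ran from -1.37 to -0.98 for Runx2, -0.85 to -0.41 for Runx3, -0.62 to -0.39 for Cbfb, 0.68 to 1.0 for Tle1, 0.090 to 1.07 for Tle3, -0.22 to -0.012 for Runx1 and -0.055 to 0.21 for Tle4. Within replicates 1 and 2 the replicate block called 2855 genes and 3 members, against 0, and left-out libraries gave 8 to 76 genes. There the differences ran from -0.41 to 0.12 for Runx1, -0.93 to 0.15 for Runx3, -0.26 to 2.2 for Tle3 and -0.20 to 0.46 for Tle4. Within replicates 3 and 4 no gene and 0 members were called without the filter by limma, with 4582 genes at an unadjusted p under 0.05, and left-out libraries gave 143 to 485 genes and 0 to 2 members, with -0.26 to 0.055 for Runx1 and -0.061 to 0.14 for Tle4. The difference between tables called 13 genes with the block, against 0. The lost calls without the filter come with 40415 genes tested. Fits without both libraries numbered 1, or both numbered 2, block the pair left in the first table. The cause of the other changes was not tested. Left-out libraries leave fewer residual degrees of freedom.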
